A study of Homo sapiens
Mus musculus with 2 samples.

Results

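The genes described here are 10 genes of the actin monomer pool, 5 of mouse and their 5 human orthologues, out of 29259 genes in all (14740 mouse and 14519 human). The rule that picks them names their identifiers and uses no measured value: mouse *Actb* (mm10_ENSMUSG00000029580), *Actg1* (mm10_ENSMUSG00000062825), *Tmsb4x* (mm10_ENSMUSG00000049775), *Tmsb10* (mm10_ENSMUSG00000079523) and *Pfn1* (mm10_ENSMUSG00000018293), and human *ACTB* (hg19_ENSG00000075624), *ACTG1* (hg19_ENSG00000184009), *TMSB4X* (hg19_ENSG00000205542), *TMSB10* (hg19_ENSG00000034510) and *PFN1* (hg19_ENSG00000108518). All 10 were present in both tables. Single cells of 4 lymphocyte cell lines, mixed in equal parts, were profiled by Drop-seq, in which a cell and a barcoded bead share a droplet and transcripts are counted at their 3′ ends by unique molecular identifiers (UMIs). The human lines were Jurkat and TALL-104, both T cells, and the mouse lines were EL4 (T cells) and IVA12 (B cells). TALL-104 was grown with interleukin-2. The libraries differed in loading, of 150 or 300 cells per µl, and neither had a replicate.

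Actin is the protein of the microfilaments that give a lymphocyte its shape, its motility and its contact with other cells. *Actb* and *Actg1* encode β- and γ-actin, the cytoplasmic forms. The β-thymosins, thymosin β4 from *Tmsb4x* and thymosin β10 from *Tmsb10*, bind actin monomers and hold them out of filaments, while profilin 1, from *Pfn1*, recharges monomers with ATP and hands them to growing filament ends. Actin and thymosin genes have processed pseudogenes and close copies in both genomes, so reads that map to several places may have been lost or split, which was not tested.

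The table for 150 cells per µl summed to 2398956 UMIs in 2000 barcodes (34.9% human), and that for 300 cells per µl to 8707135 UMIs in 4000 barcodes (19.9% human). Barcodes of at least 1000 UMIs with at least 90% of them from 1 species were taken as cells. This gave 87 and 318 human cells, with a median of 6383 and 3714 UMIs at 150 and 300 cells per µl. The mouse cells were split by the first principal component of their expression, computed without the 5 mouse genes described here, into mouse A (50 and 389 cells, median 10882 and 7474 UMIs) and mouse B (35 and 296 cells, median 13629 and 6588 UMIs). No marker gene could be matched to the identifiers, so mouse A and mouse B were not assigned to EL4 or IVA12, and the human cells were not split into Jurkat and TALL-104. Barcodes of at least 300 but under 1000 UMIs, at least 50% of them human, are called human-rich (51 and 82 barcodes, median 528 and 619 UMIs). The other barcodes of that depth (1124 and 2755), which can hold free RNA and shallow cells alike, are given beside them. Levels are CPM, here UMIs of a gene per 1000000 UMIs of the same species in the class, with exact 95% Poisson intervals that cover counting error only.

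**Figure D1:**
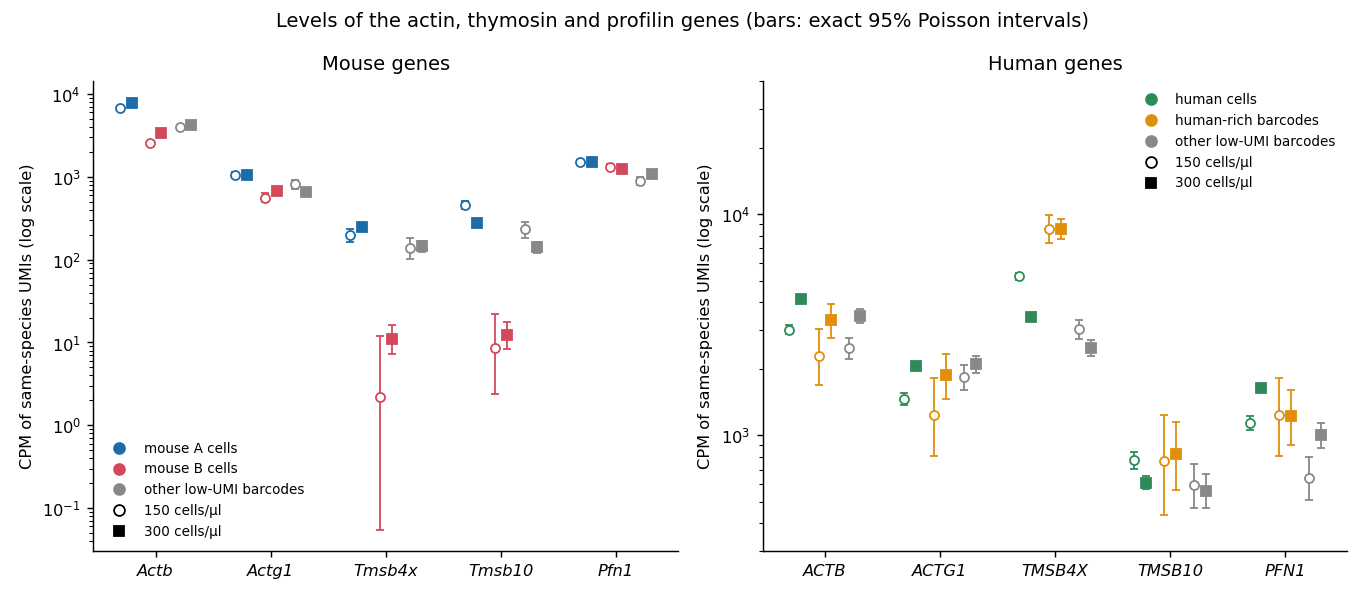
CPM of the 5 mouse genes (left) and the 5 human genes (right) on a log axis, by class of barcode, with open circles for 150 cells/µl, filled squares for 300 cells/µl and bars for exact 95% Poisson intervals. *Tmsb4x* and *Tmsb10* in mouse B cells lie between 2.17 and 12.4 CPM and in mouse A cells between 198 and 460 CPM, while *TMSB4X* stands highest in the human-rich barcodes, at 8585 and 8575 CPM.

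*Actb* was the leading gene of the 5 in both mouse groups and stood near the top of all mouse genes in mouse A. In mouse A it had 6725 CPM at 150 cells per µl (95% interval 6519 to 6936) and 7850 CPM at 300 cells per µl (7753 to 7948), which ranked it 3 and 4 by UMIs. In mouse B it had 2560 CPM (2416 to 2711) and 3379 CPM (3305 to 3454), with ranks 38 and 19. The groups did not overlap, and the other low-UMI barcodes lay between them, at 3986 and 4198 CPM of their mouse UMIs. *Actg1* followed the same order between the groups at a lower level, with 1054 and 1068 CPM in mouse A and 560 and 682 CPM in mouse B. The 2 libraries of mouse A had overlapping intervals for *Actg1*, 973 to 1139 and 1032 to 1105 CPM.

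The thymosin genes set mouse A and mouse B apart most of the 5. *Tmsb4x* had 119 and 793 UMIs in mouse A, or 198 CPM (164 to 237) at 150 cells per µl and 249 CPM (232 to 267) at 300 cells per µl. In mouse B it had 1 and 26 UMIs, or 2.17 CPM (0.055 to 12.1) and 11.1 CPM (7.27 to 16.3). It ranked 945 and 717 among mouse genes in mouse A, but 9132 and 7537 in mouse B. *Tmsb10* had 276 and 890 UMIs in mouse A, or 460 CPM (407 to 518) and 280 CPM (262 to 299). In mouse B it had 4 and 29 UMIs, or 8.69 CPM (2.37 to 22.2) and 12.4 CPM (8.32 to 17.8). Within mouse B, neither thymosin gene differed from the other beyond counting error in either library.

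The few thymosin UMIs of mouse B were spread over a few cells. At 150 cells per µl, 1 of 35 mouse B cells held a *Tmsb4x* UMI and 3 held a *Tmsb10* UMI. At 300 cells per µl, 17 of 296 cells held *Tmsb4x* (5.74%, exact binomial interval 3.38% to 9.04%) and 21 held *Tmsb10* (7.09%, 4.45% to 10.6%). Cells near the boundary of the split carried part of them, since 9 of the 296 cells held 7 of the 26 *Tmsb4x* UMIs and 13 of the 29 *Tmsb10* UMIs. As a background, mouse UMIs in human cells, which should lack mouse transcripts, included *Tmsb4x* in 1.15% and 0.943% of cells and *Tmsb10* in 1.15% and 2.52%. The depths differ, with a median of 13572 and 6549 mouse UMIs in a mouse B cell, and the human cells together held 10594 and 49990 mouse UMIs. As CPM of mouse UMIs, that background gave *Tmsb4x* 94.4 CPM (2.39 to 526) and 60.0 CPM (12.4 to 175), and *Tmsb10* 94.4 CPM (2.39 to 526) and 160 CPM (69.1 to 315). The CPM of mouse B were lower, with intervals that overlapped these for *Tmsb4x* in both libraries and for *Tmsb10* at 150 but not at 300 cells per µl. The background CPM divide by stray mouse UMIs alone, so they do not show that mouse B held less than the background. Per 100 barcodes, mouse B held 2.86 and 8.78 *Tmsb4x* UMIs, against 1.15 and 0.943 in human cells. For *Tmsb10* it held 11.4 and 9.80, against 1.15 and 2.52. How much of the mouse B counts is free RNA was not tested. Of the mouse A cells, 76.0% and 64.3% held *Tmsb4x*, and 92.0% and 70.2% held *Tmsb10*.

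Thinning every cell to 1000 mouse UMIs removed the difference in depth and kept the order of the groups. *Tmsb4x* was then found in 18.0% (8.58% to 31.4%) and 19.5% (15.6% to 23.8%) of mouse A cells, and in 2.94% (0.074% to 15.3%) and 1.04% (0.215% to 3.01%) of mouse B cells, with intervals that overlapped at 150 but not at 300 cells per µl. *Tmsb10* was found in 40.0% and 21.8% of mouse A cells and in 0 of 34 and 2.08% of mouse B cells, where 0 of 34 allows up to 10.3% by the exact binomial interval. The actins were less divided, since *Actb* was found in 100% and 99.7% of thinned mouse A cells and in 82.4% and 94.1% of thinned mouse B cells. The thinning left out 0 and 4 cells of mouse A and 1 and 8 of mouse B with under 1000 mouse UMIs.

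**Figure D2:**
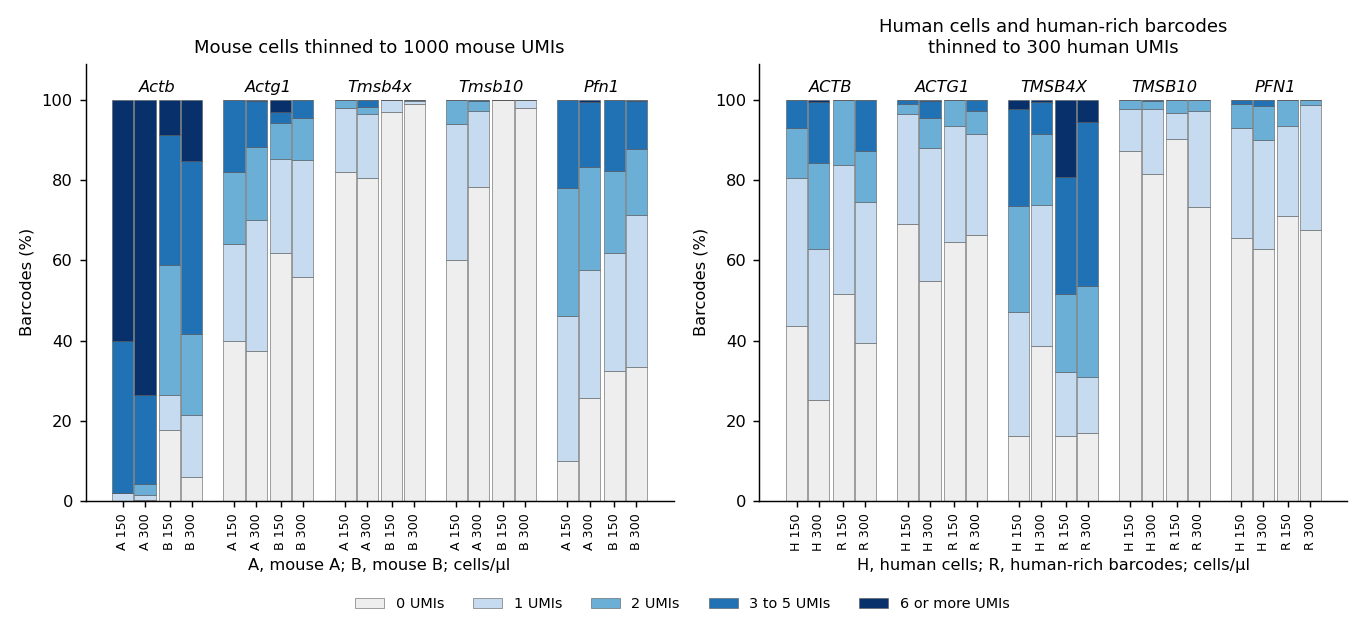
Percent of barcodes with 0, 1, 2, 3 to 5 or 6 or more UMIs of each gene, for mouse A (A) and mouse B (B) cells thinned to 1000 mouse UMIs (left) and human cells (H) and human-rich barcodes (R) thinned to 300 human UMIs (right), at 150 and 300 cells/µl. *Tmsb4x* is found in 18.0% and 19.5% of mouse A cells and in 2.94% and 1.04% of mouse B cells, and the human-rich bars for *TMSB4X* hold the largest share of barcodes with 3 or more UMIs among the human genes.

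Profilin was the gene on which the mouse groups differed least. *Pfn1* had 1502 CPM (1406 to 1603) and 1532 CPM (1490 to 1576) in mouse A, and 1336 CPM (1232 to 1445) and 1256 CPM (1211 to 1302) in mouse B. The lowest mouse A value was above the highest mouse B value, by less than the width of the intervals at 150 cells per µl. With the actins lower and profilin nearly level, mouse B held more profilin UMIs per 100 actin UMIs, at 42.8 (38.9 to 47.1) and 30.9 (29.7 to 32.2), than mouse A, at 19.3 (18.0 to 20.7) and 17.2 (16.7 to 17.7).

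For the test between mouse A and mouse B, UMIs were added up over the cells of each group in each library, and the 4 sums entered edgeR's quasi-likelihood test with library as a blocking term. Of 8928 mouse genes tested, 5074 passed an adjusted p of 0.05 (56.8%), with 2480 higher (27.8%) and 2594 lower (29.1%) in mouse B. The filter on low counts took genes above 6.81 CPM in at least 2 of the 4 sums. *Tmsb4x* was above it in 3 sums, 1 of them of mouse B, and the other 4 genes in all 4. The 5 mouse genes were called lower in mouse B, a count given as a description. Their median log2 fold change was -1.34, beside -0.03 over all genes tested. The split was made from other genes of the same cells, so these p-values are not independent of it. Cells are not replicates. With library as a block and 1 library per concentration, the 4 sums say little on how far the difference of a single gene varies between libraries. The spread in the test came mostly from other genes. The p-values, however small, thus do not measure how well the difference of a gene repeats between libraries. Without the block, the SE of *Actb* was 0.29 instead of 0.06, and its edgeR adjusted p was 0.00146.

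*Tmsb10* fell by 4.76 on the log2 scale in mouse B (SE 0.20, edgeR adjusted p = 8.55e-120) and *Tmsb4x* fell by 4.68 (SE 0.23, edgeR adjusted p = 7.90e-87). Among the 8928 genes, 215 and 224 were lower by more than *Tmsb10* and *Tmsb4x*. As ratios of CPM, *Tmsb4x* was higher in mouse A by 91.4 times at 150 cells per µl, where mouse B had 1 UMI (95% interval of the ratio 16.1 to 3638), and by 22.4 times at 300 cells per µl (15.2 to 34.5). The same ratio for *Tmsb10* was 53.0 (20.5 to 196) and 22.5 (15.6 to 33.8). The intervals of the libraries overlapped for both genes but were wide at 150 cells per µl. They neither separate the ratios at the 2 concentrations nor show that they agree. Cells weighted equally gave log2 ratios of mouse B to mouse A of -3.34 and -4.31 for *Tmsb4x* and -5.93 and -3.44 for *Tmsb10*, beside -6.51 and -4.49 and -5.73 and -4.49 for sums over cells, so the size at 150 cells per µl for *Tmsb4x* rests on how cells are weighted.

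*Actb* fell by 1.34 on the log2 scale in mouse B (SE 0.06, edgeR adjusted p = 7.48e-111), and was 2.63 times (2.46 to 2.81) and 2.32 times (2.27 to 2.38) higher in mouse A. These intervals of the 2 libraries did not overlap. *Actg1* fell by 0.79 (SE 0.09, edgeR adjusted p = 1.56e-17), with ratios of 1.88 (1.62 to 2.2) and 1.57 (1.47 to 1.66). *Pfn1* fell by 0.27 (SE 0.08, edgeR adjusted p = 9.63e-04), with ratios of 1.12 (1.01 to 1.25) and 1.22 (1.17 to 1.28), and 3415 genes were lower by more. The call of *Pfn1* was lost with DESeq2 (adjusted p = 0.146) and in edgeR without the library as a block (adjusted p = 0.425). The calls of *Actb*, *Actg1*, *Tmsb4x* and *Tmsb10* were kept in both.

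**Figure D3:**
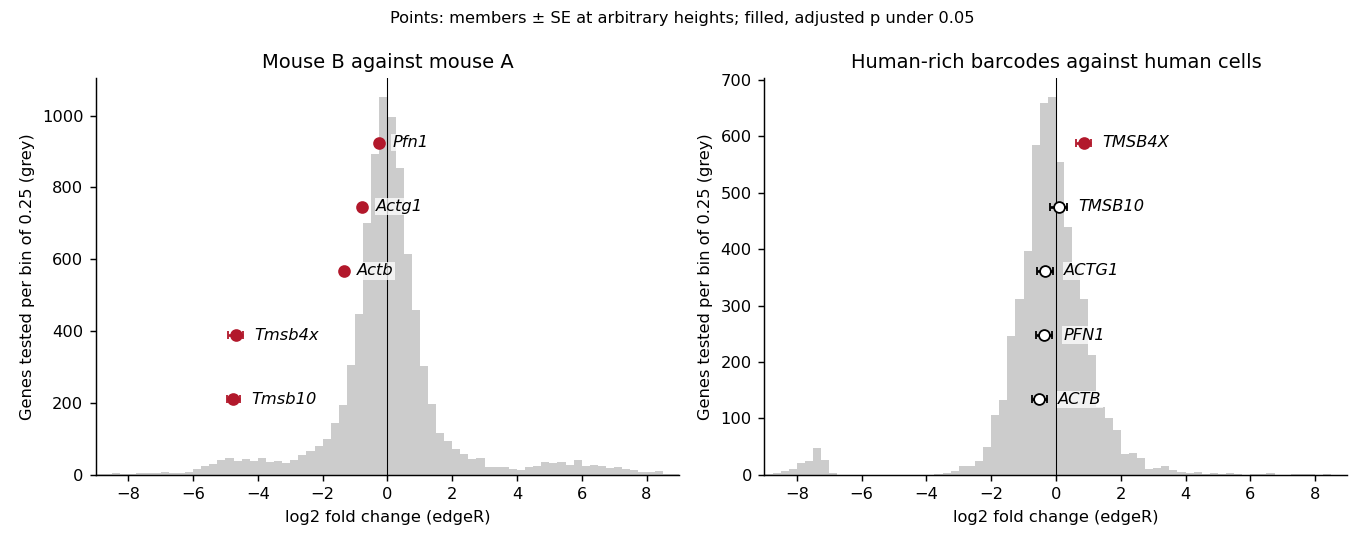
Log2 fold changes from edgeR of the 5 mouse genes in mouse B against mouse A (left) and of the 5 human genes in human-rich barcodes against human cells (right), as points with SE at arbitrary heights, over the histogram of all genes tested (grey, genes per bin of 0.25). Filled points have an adjusted p under 0.05: all 5 mouse genes, of which *Tmsb4x* and *Tmsb10* lie at -4.68 and -4.76, and *TMSB4X* at 0.86 among the human genes.

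In human cells the order of the genes differed from that in mouse cells, since *TMSB4X* stood beside *ACTB* at the top of the 5. *TMSB4X* had 5229 CPM (5050 to 5413) at 150 cells per µl, rank 3 among human genes, and 3426 CPM (3327 to 3527) at 300 cells per µl, rank 16. *ACTB* had 3009 CPM (2873 to 3149), rank 29, and 4126 CPM (4018 to 4237), rank 6. The leading gene of the 5 was thus *TMSB4X* in 1 library and *ACTB* in the other. *ACTG1* had 1460 and 2068 CPM, *PFN1* 1139 and 1641 CPM and *TMSB10* 772 and 611 CPM, an order that both libraries shared with intervals that did not overlap between neighbours.

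The human-rich barcodes carried a larger part of their UMIs in *TMSB4X* than the human cells or the other low-UMI barcodes. Their *TMSB4X* level was 8585 CPM (7377 to 9935) at 150 cells per µl, from 180 UMIs, and 8575 CPM (7694 to 9529) at 300 cells per µl, from 345 UMIs, rank 3 among human genes in both. Both values lay above both values of the human cells, and the other low-UMI barcodes were lower still, at 3014 and 2489 CPM of their human UMIs. The other 4 human genes lay at or below their level in human cells or had overlapping intervals. *ACTB* had 2289 and 3306 CPM, *ACTG1* 1240 and 1864 CPM, *TMSB10* 763 and 820 CPM and *PFN1* 1240 and 1218 CPM, and only *ACTB* at 300 cells per µl had an interval (2768 to 3918) that did not overlap that of the human cells in the same library.

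Per 100 actin UMIs, the human-rich barcodes held 265 (202 to 351) and 182 (153 to 216) thymosin UMIs, and the human cells 134 (128 to 141) and 65.2 (63.0 to 67.5). Mouse A cells held 8.47 and 5.93, and mouse B cells 0.348 and 0.580. Human and mouse counts come from different transcripts and references, and counts at 3′ ends were not scaled by length, so these ratios describe UMIs and not relative protein or RNA mass.

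Over single barcodes the same was seen without the difference in depth. After thinning to 300 human UMIs, which left out 20 of 51 and 11 of 82 human-rich barcodes and no human cell, *TMSB4X* averaged 3.06 UMIs (SD 2.71) and 2.68 UMIs (SD 2.19) in human-rich barcodes, and 1.86 (SD 1.5) and 0.997 (SD 1.06) in human cells. The share of barcodes with at least 1 *TMSB4X* UMI was 83.9% in both classes at 150 cells per µl, and 83.1% against 61.3% at 300 cells per µl. So at 150 cells per µl the higher level lay in barcodes with several UMIs, with up to 10 in 1 barcode. *ACTB* averaged 0.645 and 1.03 UMIs in human-rich barcodes, and 0.851 and 1.35 in human cells.

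The human cells, all of at least 1000 UMIs, did not show a steady relation of *TMSB4X* to depth. At 150 cells per µl, the level was 4888 CPM in the 5 cells of under 2000 UMIs, 5452 CPM in 26 cells from 2000 UMIs, 5269 CPM in 39 cells from 5000 UMIs and 5107 CPM in 17 cells of 10000 or more. With the same limits, the 36, 196, 73 and 13 cells at 300 cells per µl had 3130, 3554, 3490 and 2823 CPM. There the deepest cells (2569 to 3095 CPM) lay below those from 2000 UMIs (3410 to 3702) and from 5000 UMIs (3323 to 3664). The shallowest human cells, at 3365 to 6865 and 2670 to 3648 CPM, lay below the human-rich barcodes in both libraries. A relation of level to depth under 1000 UMIs was not tested.

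In the edgeR test of human-rich barcodes against human cells, 260 of 5745 human genes passed an adjusted p of 0.05 (4.53%), with 153 higher (2.66%) and 107 lower (1.86%) in human-rich barcodes. All 5 human genes passed the filter on low counts, and 1 of the 5 was called. *TMSB4X* rose by 0.86 on the log2 scale (SE 0.23, edgeR adjusted p = 0.0104), beside a median of -0.18 over all genes tested, and 858 genes were higher by more. As ratios of CPM it was 1.64 times (1.41 to 1.91) and 2.50 times (2.24 to 2.79) higher at 150 and 300 cells per µl, intervals that did not overlap. The human-rich level was 8585 and 8575 CPM, so the ratios differed through the human cells, at 5229 and 3426 CPM. The sums of human-rich barcodes were shallow, at 20966 and 40234 human UMIs against 616525 and 1325144 in human cells. The call was lost in 5 of the alternatives, among them DESeq2 (adjusted p = 0.0931) and edgeR without the library as a block (adjusted p = 0.275), while the value stayed positive in every alternative tried.

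The other human genes did not pass the test. *ACTB* had a log2 fold change of -0.51 (SE 0.24, edgeR adjusted p = 0.241), with ratios of human-rich to human CPM of 0.761 (0.559 to 1.01) and 0.801 (0.669 to 0.952). *ACTG1* had -0.34 (SE 0.24, edgeR adjusted p = 0.567), with ratios of 0.850 (0.552 to 1.25) and 0.902 (0.707 to 1.13). *TMSB10*, the paralogue of *TMSB4X*, had 0.08 (SE 0.27, edgeR adjusted p = 0.945), with ratios of 0.988 (0.560 to 1.62) and 1.34 (0.918 to 1.90). The interval for *TMSB10* overlapped that of *TMSB4X* at 150 cells per µl and lay below it at 300 cells per µl. *PFN1* had -0.36 (SE 0.25, edgeR adjusted p = 0.537), with ratios of 1.09 (0.706 to 1.61) and 0.742 (0.547 to 0.985).

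Mouse UMIs were present in the human-rich barcodes, whose UMIs were 73.2% and 75.5% human at the median, against 98.3% and 96.4% in human cells, and the source of these mouse UMIs was not tested. When human UMIs were removed from the human-rich sums in proportion to their mouse UMIs, by the composition of the other low-UMI barcodes, 11.3% and 5.83% of human UMIs were subtracted. The log2 ratio of *TMSB4X* was then 0.83 and 1.39, beside 0.72 and 1.32 before. The human cells were not split by line, and which line the human-rich barcodes came from was not determined. Mitochondrial genes were not analysed.

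**Figure D4:**
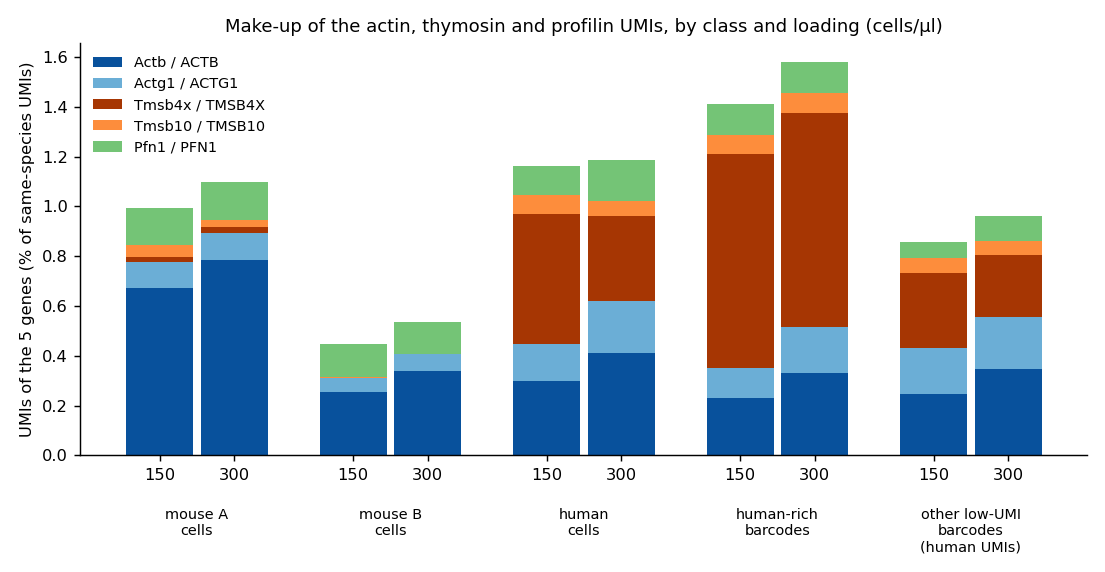
UMIs of the 5 genes as percent of the UMIs of the same species, stacked by gene and orthologue, for each class of barcode at 150 and 300 cells/µl. The stack is lowest in mouse B (0.447% and 0.534%) and highest in the human-rich barcodes (1.41% and 1.58%), where *TMSB4X* makes up 60.8% and 54.3% of it.

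Summed up, the 5 genes took a somewhat larger share of UMIs in human cells than in mouse A, with intervals that did not overlap in either library. The sum was 1.16% (1.13% to 1.19%) and 1.19% (1.17% to 1.21%) of human UMIs in human cells, and 0.994% (0.969% to 1.02%) and 1.10% (1.09% to 1.11%) of mouse UMIs in mouse A. It was 0.447% (0.428% to 0.466%) and 0.534% (0.525% to 0.543%) in mouse B, and 1.41% (1.26% to 1.58%) and 1.58% (1.46% to 1.71%) in human-rich barcodes. The makeup differed between species, since *Actb* alone was 67.7% and 71.5% of the sum in mouse A, while in human cells *TMSB4X* was 45.0% and 28.9% and *ACTB* 25.9% and 34.8%.

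The balance between paralogues was taken as the share of 1 form in the UMIs of both. β-actin made up 67.3% (65.5% to 69.1%) and 66.6% (65.6% to 67.6%) of actin UMIs in human cells, 64.9% and 63.9% in human-rich barcodes, 86.5% and 88.0% in mouse A, but 82% and 83.2% in mouse B. In human cells, and again in human-rich barcodes, the 2 libraries did not differ beyond counting error. Thymosin β4 made up 87.1% (86.0% to 88.2%) and 84.9% (83.9% to 85.8%) of thymosin UMIs in human cells and 91.8% and 91.3% in human-rich barcodes. In mouse A it made up 30.1% (25.6% to 34.9%) in the library at 150 cells per µl but 47.1% (44.7% to 49.5%) in the other, intervals that did not overlap. In the mouse UMIs of the other low-UMI barcodes it was 37.2% (28.9% to 46.2%) and 50.6% (45.3% to 55.8%), with intervals that overlapped.

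The balance also varied among cells of a class. The variance of the β-actin share over cells with at least 10 actin UMIs was set against the binomial variance at each cell's count, where 1 is what counting alone gives. It was 1.32 and 1.38 times that in human cells, 1.72 and 1.62 times in mouse A, and 5.98 and 3.02 times in mouse B. In mouse B the middle 50% of cells had a share of 74.3% to 93.8% in the library at 150 cells per µl but 77.8% to 92.6% in the other, and single cells held up to 43 and 51 *Actg1* UMIs where the median cell held 4 and 3. For the thymosins it was 2.08 and 1.63 times in human cells, and 1.34 and 3.39 times in mouse A, there over 16 and 46 cells.

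At equal depth, *TMSB4X* was also among the genes with the highest ratio of variance to mean over human cells. After thinning to 1000 human UMIs, its variance divided by its mean was 1.71 and 1.81, beside a median of 1.04 and 1.09 over the 306 and 297 genes with a mean of at least 0.5 UMIs. Of these genes, 16 and 9 had a higher value. *ACTB* had 1.01 and 1.54, and *PFN1* 1.27 and 1.09. In mouse A *Actb* had 1.56 and 1.51, beside medians of 1.05 and 1.10. This ratio can rise with the level of a gene and was not adjusted for it. *TMSB4X* averaged 5.08 and 3.39 UMIs in the thinned human cells, so its place may reflect its level.

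The 5 genes showed little relation to each other over cells of a class. Over thinned cells, the Spearman correlation of *Actb* and *Actg1* was 0.06 and 0.16 in mouse A (50 and 385 cells) and 0.01 and 0.21 in mouse B (34 and 288 cells), and that of *ACTB* and *ACTG1* was 0.16 and 0.15 in human cells (85 and 313 cells). *TMSB4X* and *TMSB10* had 0.14 in both libraries. At these low counts such values describe the cells of 1 library and are no finding. Among 3996 mouse genes detected in at least 20% of the cells of each library and group, the gene most like *Actb* was ENSMUSG00000034158, with a mean Spearman correlation of 0.47 over the 4 sets of cells, and the same gene was most like *Actg1* (0.35). For *Pfn1* it was ENSMUSG00000022205 (0.32). These values were taken at full depth, which the genes of a cell share. No human gene reached 0.3 with a human gene of the 5. *Tmsb4x* and *Tmsb10*, themselves detected in under 20% of mouse B cells, reached at most 0.24 and 0.27.

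The loading concentrations were set side by side as ratios of CPM, 300 over 150 cells per µl, with exact conditional binomial intervals and no test. Genes with at least 100 UMIs in a class over both libraries were compared, which left out *Tmsb4x* and *Tmsb10* in mouse B. Beyond 2-fold lay 3.76% of 5472 genes in mouse A, 4.98% of 4603 genes in mouse B and 1.77% of 3845 genes in human cells, and 0 of the 13 values of the genes described here. In human cells *TMSB4X* was at 0.655 times (0.626 to 0.686) and *TMSB10* at 0.791 times (0.705 to 0.887) its level at 150 cells per µl, while *ACTB* was at 1.37 times (1.3 to 1.45), *ACTG1* at 1.42 times (1.31 to 1.53) and *PFN1* at 1.44 times (1.32 to 1.57). Both thymosins were thus lower and the other 3 genes higher in the library at 300 cells per µl, within a spread in which 11.1% of human genes lay farther from 0 than *TMSB4X* on the log2 scale. The proportions of both human lines in each library are not known here, and concentration, library and line composition cannot be told apart.

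In mouse A, *Tmsb10* was at 0.608 times (0.531 to 0.699) and *Tmsb4x* at 1.26 times (1.04 to 1.54) its level at 150 cells per µl. *Actb* was at 1.17 times (1.13 to 1.21) in mouse A and 1.32 times (1.24 to 1.40) in mouse B, and *Actg1* at 1.22 times (1.07 to 1.39) in mouse B. *Actg1* and *Pfn1* in mouse A and *Pfn1* in mouse B had intervals that include 1. The median log2 ratio of all genes compared was 0.14 in mouse A, 0.14 in mouse B and 0.08 in human cells. TMM scaling lowered each log2 ratio by 0.13, 0.14 and 0.12, after which *Actg1* and *Pfn1* in mouse A lay at -0.11 and -0.10, below 0 instead of above it.

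**Figure D5:**
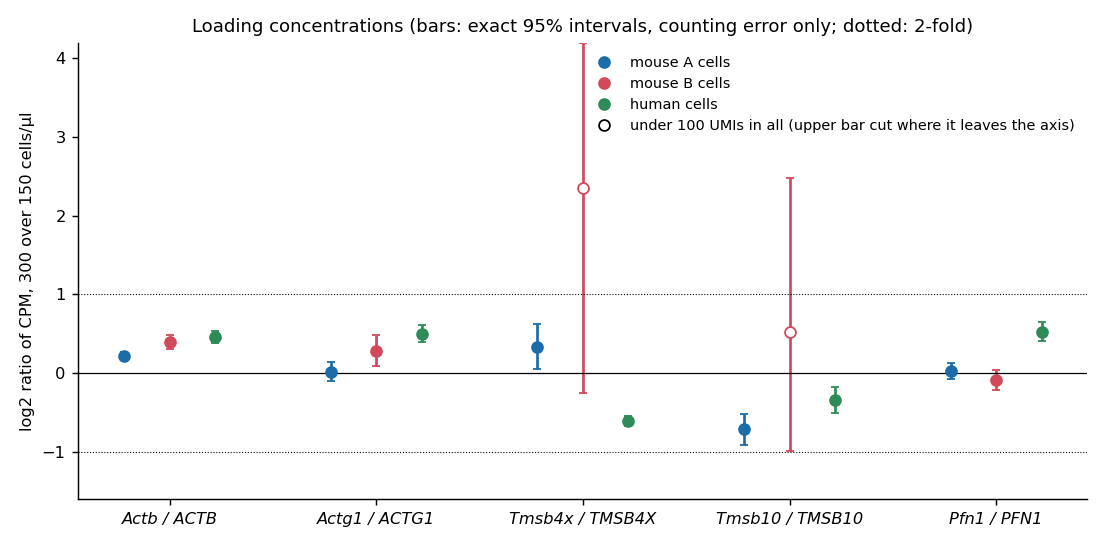
Log2 ratio of CPM at 300 over 150 cells/µl for each gene or orthologue in mouse A, mouse B and human cells, with exact 95% intervals for counting error and dotted lines at 2-fold. Open points have under 100 UMIs in all, and the upper bar of *Tmsb4x* in mouse B leaves the axis. *TMSB4X* lies at -0.61 and *Tmsb10* in mouse A at -0.72, while *ACTB*, *ACTG1* and *PFN1* lie between 0.46 and 0.53.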

How the data were processed

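UMI counts of 2 Drop-seq libraries were analysed. The methods of the study give downsampling with seqtk, Drop-seq_Tools with Picard, and alignment with STAR to hg19 and mm10 combined (STAR 2.4.2a and Cell Ranger 1.2.0 in the submitters' processing notes). The authors deposited raw UMI counts of genes by barcodes for each library. Whether these counts came from downsampled reads is not given in the sources used here. Drop-seq_Tools by default counts alignments of high mapping quality, which bears on genes with close copies.

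The genes, lists, tests and groups were chosen with earlier results of these data known. The symbols of the 10 genes come with their identifiers. The tables hold Ensembl identifiers, of which 0 matched the human gene table at hand, and no mouse names were used, so a list of other actin genes and the cell type markers were not analysed. No sequence, position or annotation of the genes is given for the same reason.

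A cell had at least 1000 UMIs with at least 90% from 1 species, and the others of at least 1000 UMIs were mixed. The tables shared 1 barcode and no barcode used in a class. No doublet caller was run. Mouse cells were scaled to 10000 UMIs, log-transformed and split by the sign of the first principal component (9.36% of the variance, beside 1.58% for the next) of the 2000 most variable genes found in at least 10 cells, with the 5 mouse genes left out. Leiden clusters (leidenalg 0.10.2) gave the same group for 769 of 770 cells. UMIs were summed per library and class and tested with edgeR 4.0.16 in R 4.3.3 (TMM, filterByExpr, library as a block, Benjamini-Hochberg over all genes tested, threshold 0.05). The library is a block because both groups of a comparison come from the same library. edgeR was also run on sums simulated from its own fitted dispersions, with the groups given and no differences of genes between libraries. Such sums leave out the split of the mouse cells, so they cannot show how it affects the p-values. Alternatives were DESeq2 1.42.0, its size factors in edgeR, no filter, no block, each library left out, cells weighted equally, at least 2000 UMIs, a purity of 95%, the genes left out of the totals, other limits for human-rich barcodes, human cells thinned to 500 UMIs and, added after seeing the data, the cells near the mouse split left out and the composition of the other low-UMI barcodes subtracted. Intervals are at 95% and cover counting error only. Every named gene was a member, except those most alike by a mean Spearman correlation of at least 0.3.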

Additional observations from a re-analysis of the deposited data

Results flagged for a closer look

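With 1 library per concentration, no group had enough samples to look for a library that stands apart. The following pairs of values had opposite signs, and none of the differences was tested. Between 300 and 150 cells per µl, the log2 ratio of CPM was 0.33 for *Tmsb4x* in mouse A and -0.61 for *TMSB4X* in human cells, a difference of -0.94. In mouse B, where *Tmsb4x* rests on 1 and 26 UMIs, it was 2.36, a difference of -2.97 from human cells, but -0.67 with cells weighted equally. *Tmsb10* was at -0.72 in mouse A and 0.52 in mouse B, from 4 and 29 UMIs there, a difference of 1.23, and *TMSB10* in human cells was at -0.34, a difference of -0.85 from mouse B. *Pfn1* was at 0.03 in mouse A and -0.09 in mouse B, a difference of -0.12, and *PFN1* in human cells at 0.53, a difference of 0.62 from mouse B.

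Between human-rich barcodes and human cells, the log2 ratio of *TMSB10* was -0.02 at 150 and 0.43 at 300 cells per µl, a difference of 0.44, and that of *PFN1* was 0.12 and -0.43, a difference of -0.55. The interval of each of these 4 ratios except that of *PFN1* at 300 cells per µl includes 0.

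Mixed barcodes of at least 1000 UMIs were used in no comparison. Those with at least 50% human UMIs held 65 *TMSB4X* UMIs in 8 barcodes at 150 cells per µl and 331 in 39 barcodes at 300 cells per µl, above a set floor of 3 counts. This was 6125 CPM (4727 to 7806) and 4412 CPM (3949 to 4914) of their human UMIs. Both values lay between those of the human cells and the human-rich barcodes. The interval overlapped those of both classes at 150 cells per µl and of neither at 300 cells per µl.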

How the results depend on the processing

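The calls of *Actb*, *Actg1*, *Tmsb4x* and *Tmsb10* between the mouse groups were kept under every test tried. *Pfn1* was at -0.25 (adjusted p = 0.146) with DESeq2 and -0.27 (0.425) with no replicate block, and cells weighted equally gave -0.38, with -3.82 for *Tmsb4x* and -4.69 for *Tmsb10*. Without the cells near the split, added after seeing the data, edgeR gave -5.35 for *Tmsb10* (40.7 times lower, beside 27.0) and -4.98 for *Tmsb4x* (31.6 times). DESeq2 called 1755 mouse genes, and no replicate block 3502. Leaving out each library gave log2 ratios of CPM from -6.51 (mouse B with 1 UMI) to -4.49 for *Tmsb4x*, -5.73 to -4.49 for *Tmsb10*, -1.39 to -1.22 for *Actb*, -0.91 to -0.65 for *Actg1* and -0.29 to -0.17 for *Pfn1*.

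The call of *TMSB4X* in human-rich barcodes was not kept throughout. It was 0.78 (adjusted p = 0.0931) with DESeq2, 0.54 (0.180) with no filter, 0.81 (0.275) with no replicate block, 0.83 (0.0809) at 75% human UMIs or more and 0.84 (0.0535) at 500 UMIs or more. Of the 5 human genes, 0 were called with DESeq2, with no replicate block, at 75% and at 500 UMIs or more, where 2, 1, 1 and 1 had an unadjusted p under 0.05. Genes passing numbered 114 with DESeq2 (408 at an unadjusted p under 0.05), 132 with no replicate block (908), and 67 of 832 with human cells thinned to 500 UMIs, where *ACTG1* and *PFN1* turned to 0.11 and 0.050, *ACTB* was -0.0028, *TMSB4X* 2.46 times higher (0.0051) and *TMSB10* 1.68 times higher (0.152, unadjusted p = 0.0170). With no filter, where the median of all genes was -0.96, *ACTB* was called at -0.82 (0.0112) and *TMSB10* turned to -0.23. *TMSB10* was -0.011 with DESeq2 and -0.17 at 75%. Cells weighted equally gave -0.24 for *ACTG1*, and subtraction by the other low-UMI barcodes, added after seeing the data, -0.37 for *ACTB* and -0.24 for *ACTG1*. Leaving out each library gave 0.72 to 1.32 for *TMSB4X*, -0.39 to -0.32 for *ACTB*, -0.24 to -0.15 for *ACTG1*, -0.017 to 0.43 for *TMSB10* and -0.43 to 0.12 for *PFN1*. The cause of these changes was not tested. These values without a test are ratios of CPM and not of TMM-scaled counts.

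Between concentrations, 0 of 13 values lay beyond 2-fold under TMM, equal weights or at least 2000 UMIs. The depth of the human-rich sums limits their *ACTG1*, *TMSB10* and *PFN1* values, which rest on 16 to 75 UMIs. No paired analysis beyond the library block was possible because each concentration has 1 library.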

Other observations

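The mixed barcodes with at least 50% human UMIs also held the other human genes. *ACTB* had 3015 CPM (2062 to 4257) and 3812 CPM (3383 to 4281) of their human UMIs, *ACTG1* 1508 and 1919 CPM, *TMSB10* 942 and 746 CPM and *PFN1* 1319 and 1533 CPM, from 8 and 39 barcodes.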
